A study of Mus musculus with 15 samples.

Results

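Hearts of mice given either of 2 cholinergic drugs after pressure overload were compared, both drugs together, with hearts of mice given saline. The comparison used all 15 of the 15 libraries of the series, 5 from donepezil, 5 from encenicline and 5 from saline, grouped by library title. Each drug carried the same weight, so the pooled value of a gene is the mean of the donepezil and encenicline group means minus the saline mean. Genes were tested where the FPKM (reads scaled to gene length and library size) was at least 0.5 in at least 5 libraries, which left 13396 of 54532 genes. A gene passed at an adjusted p under 0.05 in the linear model of limma with Benjamini-Hochberg adjustment over all genes tested.

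All mice were wild-type C57BL/6, 8 to 10 weeks of age, with transverse aortic constriction (TAC), in which a band around the aorta makes the left ventricle pump against a raised pressure. The survivors were randomised after 4 weeks of TAC, 15 mice to an arm, and every library carries the label of 8 weeks of TAC. Donepezil was given at 5 mg/kg/day and encenicline, also called EVP-6124, at 2 mg/kg/day, both by mouth in the drinking water, and control mice had the same volume of physiological saline. No unbanded hearts were analysed here, so the change caused by TAC itself was not measured. Whole heart RNA was sequenced, and whether each library comes from its own animal is not spelled out in the labels, so the p-values measure the spread between these libraries, which may be technical.

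The vagus nerve slows the heart through acetylcholine, which acts on muscarinic receptors of pacemaker and atrial cells and, in the proposed anti-inflammatory reflex, on the nicotinic receptor encoded by Chrna7 on macrophages. Donepezil blocks acetylcholinesterase, the enzyme that breaks acetylcholine down, and encenicline is a partial agonist of the Chrna7 receptor. The results below follow groups of genes, among them interferon-stimulated genes, the fasting programme of fuel use and the ubiquitin and autophagy systems.

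The libraries held 14496147 to 17176086 reads recovered from the FPKM values, of which 17.4 to 27.0% were mitochondrially encoded. The mitochondrial share was 23.5 ± 2.68% in the 10 drug libraries and 21.7 ± 1.60% in the 5 saline libraries (SD), an exact two-sided permutation p of 0.205. Defining genes of cardiomyocytes were present in each library, with summed levels of 12890 to 21330 FPKM over 10 markers in drug libraries and 13790 to 19950 FPKM in saline libraries. The label fields disagree for 2 libraries: donepezil 1 has saline entered as its treatment and encenicline 1 has donepezil, against their titles. Donepezil 4 stood apart from the rest on the first principal component (−45.9, with saline 3 next at −22.3), and its Col1a1 level was 229 FPKM where the other donepezil libraries had 13.7 to 20.1 FPKM. Counts and calls that rest on these libraries are given with and without them.

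Both drugs together changed few genes past the threshold. Of 13396 genes tested, 13 passed (0.0970%), with 7 higher (0.0523%) and 6 lower (0.0448%) in drug-treated than in saline hearts. The genes that rose were Pdk4, Ucp3, Fbxo32, Bnip3, Tacc2, Hsd17b11 and Aox1, and those that fell were Cbr2, Inka2, Plxnd1, Phyhip, Myct1 and Ddx58. Each of the 13 was shifted the same way by donepezil and by encenicline, and 11 of them reached an unadjusted limma p under 0.05 with each drug alone. The exceptions were Ucp3 and Phyhip, where the unadjusted p of encenicline against saline was 0.0784 and 0.356. The 13 genes were picked by the mean of these same drug shifts. Their shared direction and low single-drug p are therefore partly set by that choice and are a description only. At an unadjusted p under 0.05 the pooled comparison held 1674 genes (12.5%), 869 higher (6.49%) and 805 lower (6.01%). With both drugs alone past an unadjusted p of 0.05 in one direction there were 225 genes higher (1.68%) and 217 lower (1.62%), and both drugs are read against the same saline libraries.

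The count depended on single libraries. It was 103 (56 higher, 47 lower) without donepezil 4, 91 (36 higher, 55 lower) without saline 1, 8 without donepezil 3 and 4 without saline 4. Without the 2 libraries whose label fields conflict, 5 genes passed, namely Pdk4, Ucp3, Hsd17b11, Phyhip and Cbr2. With the groups taken from the treatment field, no gene passed in limma and 866 had an unadjusted p under 0.05.

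**Figure D1:**
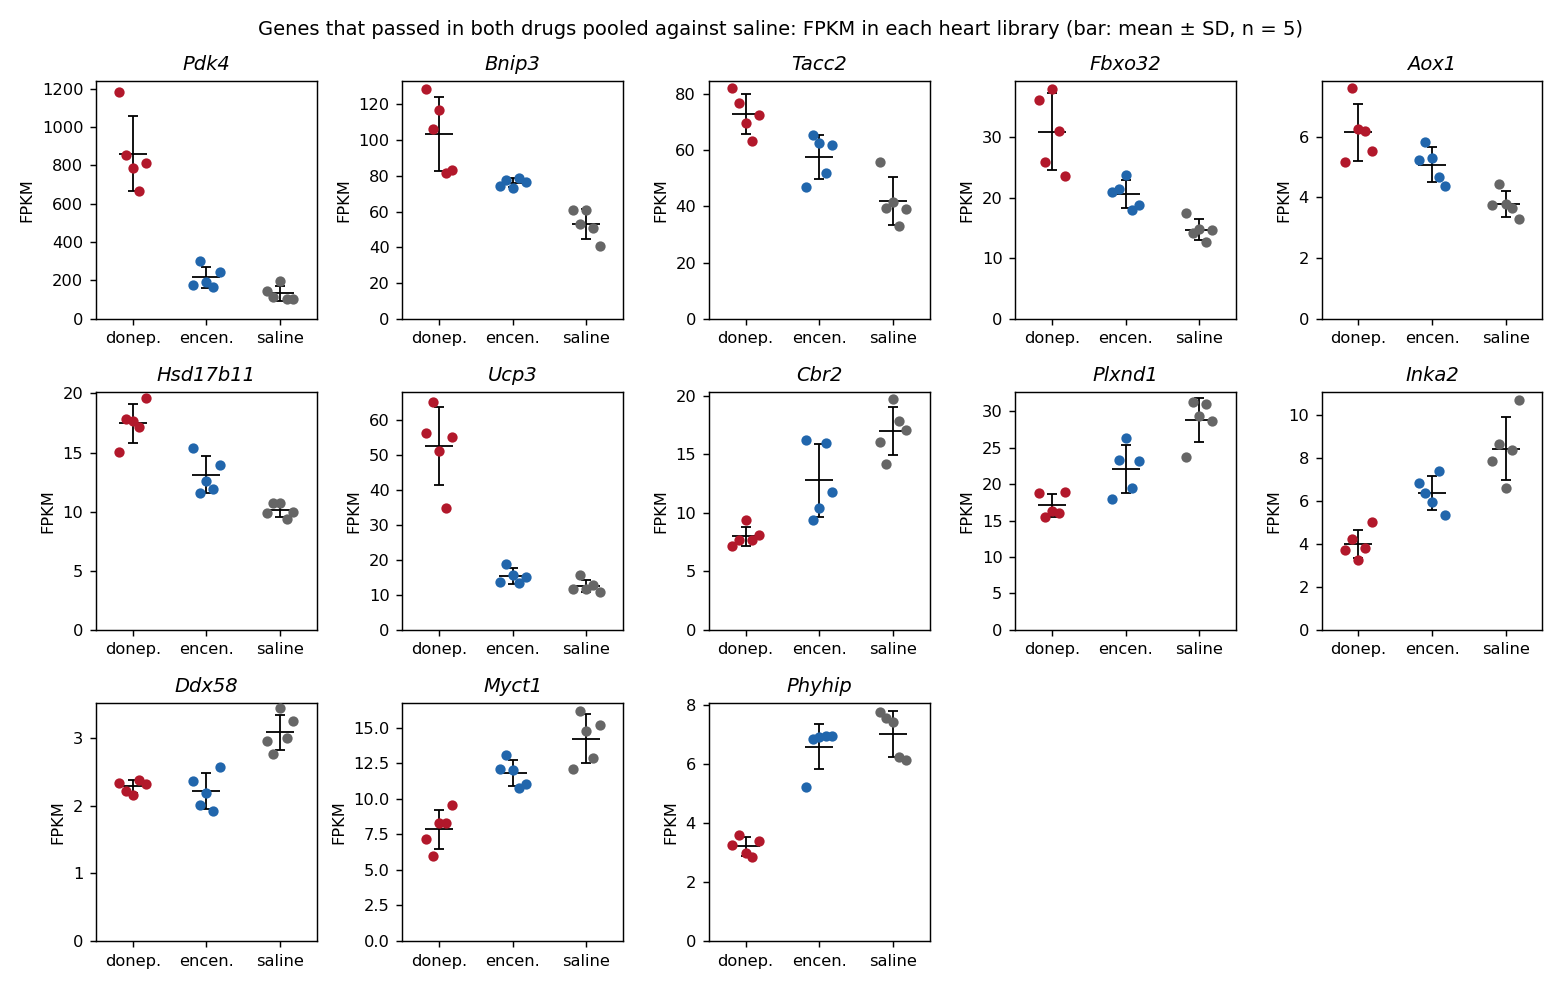
FPKM (vertical axis, linear, from 0) of the 13 genes that passed, in the 5 donepezil, 5 encenicline and 5 saline libraries of each panel; points are libraries, bars the mean ± SD. For Hsd17b11, Fbxo32 and Bnip3 all 10 drug libraries lie above the saline libraries, and for Ddx58 all 10 lie below them.

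Genes of fuel use led the increases. Pdk4 (chromosome 6, 5483351 to 5496309, minus strand, GRCm38) encodes the kinase that switches off pyruvate dehydrogenase and so spares glucose. Its level was 1186, 854, 789, 668 and 814 FPKM in donepezil libraries, 176, 299.9, 192, 168 and 243 FPKM in encenicline libraries, and 143, 113, 197, 101 and 104 FPKM in saline libraries. Every donepezil library was far above all others, while encenicline and saline overlapped through saline 3. The pooled log2 fold change was 1.73 (SE 0.18, limma adjusted p = 0.000838), made up of 2.73 for donepezil and 0.72 for encenicline.

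Ucp3 (chromosome 7, 100472990 to 100486432, plus strand) encodes an uncoupling protein of the inner mitochondrial membrane of muscle. It had 56.3, 65.2, 51.2, 34.8 and 55.0 FPKM with donepezil, 13.7, 18.9, 15.6, 13.3 and 15.0 FPKM with encenicline, and 11.7, 15.5, 11.7, 12.9 and 10.9 FPKM with saline. Encenicline and saline overlapped, and the rise came from the donepezil libraries. The pooled log2 fold change was 1.14 (SE 0.13, limma adjusted p = 0.00113), with 2.00 for donepezil and 0.28 for encenicline. Pdk4 and Ucp3 were the 2 genes of the 13 whose pooled change was 2-fold or more.

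Fbxo32 (chromosome 15, 58175879 to 58214932, minus strand) encodes atrogin-1, the muscle ubiquitin ligase subunit that marks proteins for breakdown in atrophy. Its levels were 36.2, 25.9, 38.1, 31.1 and 23.5 FPKM with donepezil, 21.0, 21.5, 23.8, 17.96 and 18.8 FPKM with encenicline, and 17.4, 14.1, 14.8, 12.7 and 14.7 FPKM with saline. All 10 drug libraries were above all 5 saline libraries. The pooled log2 fold change was 0.75 (SE 0.11, limma adjusted p = 0.0145), and without saline 4 the adjusted p was 0.0929.

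Bnip3 (chromosome 7, 138890836 to 138909519, minus strand) encodes a protein of the outer mitochondrial membrane that recruits the autophagy machinery. It had 129, 106, 117, 81.4 and 83.4 FPKM with donepezil, 74.5, 77.8, 73.0, 79.0 and 76.3 FPKM with encenicline, and 60.7, 53.1, 60.6, 51.0 and 40.5 FPKM with saline. The groups did not overlap, and the encenicline libraries lay close together between the other groups. Its pooled log2 fold change was 0.74 (SE 0.11, limma adjusted p = 0.0206), and without saline 4 the adjusted p was 0.103.

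Hsd17b11 (chromosome 5, 103989762 to 104021919, minus strand), a dehydrogenase of lipid droplets, was 15.1, 17.8, 17.7, 17.2 and 19.6 FPKM with donepezil, 15.4, 11.6, 12.6, 11.9 and 13.9 FPKM with encenicline, and 9.88, 10.7, 10.8, 9.40 and 9.99 FPKM with saline. No drug library reached down to the saline range. The change was 0.55 on the log2 scale (SE 0.07, limma adjusted p = 0.00727). Genes with all 10 drug libraries outside the saline range numbered 40 of 13396 (0.299%), with 26 above (0.194%) and 14 below (0.105%), and 4 of the 13 that passed were among them.

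Tacc2 (chromosome 7, 130577438 to 130764785, plus strand) encodes a coiled-coil protein of the centrosome and microtubules. It was 63.3 to 82.3 FPKM with donepezil, 47.0 to 65.4 FPKM with encenicline and 33.0 to 56.0 FPKM with saline, with saline 1 inside the encenicline range. Aox1 (chromosome 1, 58029931 to 58106413, plus strand), an aldehyde oxidase, was 5.15 to 7.62 FPKM with donepezil, 4.37 to 5.82 FPKM with encenicline and 3.29 to 4.44 FPKM with saline. Their pooled log2 fold changes were 0.64 and 0.51 (SE 0.11 and 0.09, limma adjusted p = 0.0397 and 0.0400). Both calls were weak: when each library was left out in turn, Tacc2 passed in 4 of 15 fits (those without donepezil 4, encenicline 1, encenicline 4 or saline 1) and Aox1 in 8 of 15. The adjusted p was 0.0513 to 0.136 in the other fits for Tacc2, and 0.0623 to 0.136 for Aox1 without donepezil 3, encenicline 1, encenicline 2, encenicline 3, saline 3, saline 4 or saline 5.

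Among the genes that fell, Ddx58 had drug effects of nearly equal size. Ddx58 (chromosome 4, 40203773 to 40239828, minus strand) encodes RIG-I, the cytosolic sensor of viral RNA, and is itself induced by interferon. Its levels were 2.33, 2.22, 2.16, 2.38 and 2.32 FPKM with donepezil, 2.36, 2.01, 2.19, 1.92 and 2.57 FPKM with encenicline, and 2.96, 2.76, 3.44, 2.998 and 3.25 FPKM with saline. All 10 drug libraries were below the lowest saline library, although the gap between the highest drug and the lowest saline library was small. The pooled log2 fold change was −0.38 (SE 0.07, limma adjusted p = 0.0397), with −0.36 for donepezil and −0.40 for encenicline. The call held in 5 of the 15 fits that leave 1 library out (without donepezil 4, encenicline 4, encenicline 5, saline 1 or saline 2), and the adjusted p was 0.0513 to 0.114 in the other 10.

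Plxnd1 and Myct1 are genes of blood vessel cells. Plxnd1 (chromosome 6, 115954811 to 115995005, minus strand), the endothelial receptor for semaphorin 3E, had 18.8, 15.5, 16.3, 16.1 and 18.9 FPKM with donepezil, 17.96, 23.3, 26.4, 19.5 and 23.1 FPKM with encenicline, and 23.7, 31.2, 29.4, 31.0 and 28.6 FPKM with saline. Of the drug libraries, encenicline 3 alone reached into the saline range, above saline 1. Its pooled log2 fold change was −0.56 (SE 0.09, limma adjusted p = 0.0275). Leaving out donepezil 3, saline 2, saline 3, saline 4 or saline 5 raised that adjusted p to between 0.0658 and 0.114. Myct1 (chromosome 10, 5593775 to 5606904, plus strand), a Myc target expressed in endothelium, was 5.96 to 9.57 FPKM with donepezil, 10.8 to 13.1 FPKM with encenicline and 12.1 to 16.2 FPKM with saline. Its log2 fold change was −0.54 (SE 0.10, limma adjusted p = 0.0443), and it passed in 4 of the 15 fits without 1 library (donepezil 2, donepezil 4, donepezil 5 or saline 1), with an adjusted p of 0.0623 to 0.114 in the other 11. In whole tissue, fewer cells of a type and less RNA per cell cannot be told apart.

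Inka2 (chromosome 3, 105704599 to 105720842, plus strand), an inhibitor of the kinase PAK4, was 3.27 to 5.02 FPKM with donepezil, 5.33 to 7.41 FPKM with encenicline and 6.61 to 10.7 FPKM with saline. Cbr2 (chromosome 11, 120729489 to 120732114, minus strand), a carbonyl reductase, was 7.20 to 9.34 FPKM with donepezil, 9.42 to 16.2 FPKM with encenicline and 14.1 to 19.7 FPKM with saline. For both genes 8 of the 10 drug libraries were below the saline range and the other 2, from encenicline, were inside it. Their log2 fold changes were −0.68 and −0.73 (SE 0.11 and 0.12, limma adjusted p = 0.0224 and 0.0275), and they passed in 12 and 9 of the 15 fits without 1 library. The Inka2 call was lost without saline 2, saline 4 or saline 5 (adjusted p of 0.0577 to 0.103). The Cbr2 call was lost without donepezil 1, encenicline 3, encenicline 5, saline 3, saline 4 or saline 5 (adjusted p of 0.0528 to 0.114).

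Phyhip (chromosome 14, 70457476 to 70468832, plus strand) encodes a protein that binds the peroxisomal phytanoyl-CoA hydroxylase. It had 3.24, 3.60, 2.97, 2.83 and 3.39 FPKM with donepezil, 5.23, 6.86, 6.92, 6.97 and 6.95 FPKM with encenicline, and 7.78, 7.57, 7.43, 6.24 and 6.15 FPKM with saline. All donepezil libraries were below all others, and 4 of the 5 encenicline libraries were within the saline range. The pooled log2 fold change was −0.56 (SE 0.08, limma adjusted p = 0.0145), with −1.02 for donepezil and −0.09 for encenicline, so the same direction for encenicline is not a difference beyond its error.

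Donepezil carried the larger shift in 12 of the 13 genes, all but Ddx58. Against saline on its own, donepezil called 284 of 13396 genes (2.12%) and all 13 of these. Encenicline on its own called 0 genes in limma, where 1235 had an unadjusted p under 0.05, and limma voom on the recovered reads also called 0, with 1534 at an unadjusted p under 0.05. Without donepezil 4, which enters the shared estimate of spread, encenicline called 1 gene. The direct difference, encenicline minus donepezil, passed in 7 of the 13 (limma with Benjamini-Hochberg adjustment over all genes, 125 called or 0.933%), at doses that were not the same. It was −2.01 for Pdk4, −1.73 for Ucp3 and −0.40 for Hsd17b11 (adjusted p = 0.000193, 5.8e-05 and 0.0363). It was 0.93 for Phyhip, 0.61 for Inka2, 0.62 for Cbr2 and 0.57 for Myct1 (adjusted p = 0.000193, 0.0286, 0.0475 and 0.0247). For Ddx58 the difference was −0.04 on the log2 scale with a 95% interval of −0.20 to 0.12 (adjusted p = 0.827). It did not pass for Fbxo32 (−0.56, adjusted p = 0.0506), Bnip3 (−0.42, 0.147), Plxnd1 (0.35, 0.134), Tacc2 (−0.34, 0.225) and Aox1 (−0.25, 0.264) either, with 95% intervals from −0.83 to −0.29, −0.69 to −0.14, 0.12 to 0.57, −0.61 to −0.07 and −0.47 to −0.03.

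**Figure D2:**
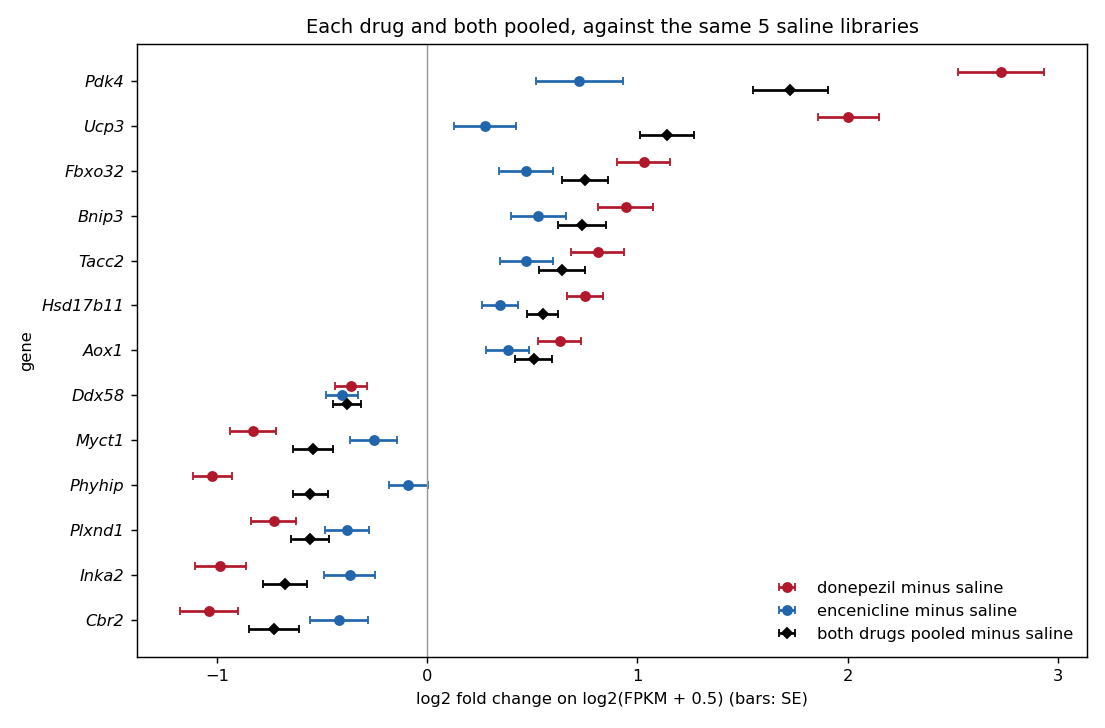
Log2 fold change on log2(FPKM + 0.5) (horizontal axis) of the 13 genes that passed, for donepezil minus saline, encenicline minus saline and both drugs pooled minus saline, with bars of 1 SE; all 3 use the same 5 saline libraries. Donepezil lies further from 0 than encenicline in every gene except Ddx58, and for Phyhip the encenicline value of −0.09 is within 1 SE of 0.

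Genes of the fasting and glucocorticoid programme were higher in drug-treated hearts as a list, mainly with donepezil. Of 28 genes tested, 26 had a pooled log2 fold change above 0, beside 50.6% of all genes tested. Of them 3 passed (Pdk4, Ucp3 and Fbxo32), beside 0.0523% of all genes that passed and were higher. At an unadjusted p under 0.05, 21 were higher, beside 6.49% of all genes. The median log2 fold change of the list was 0.54, beside 0.0016 over all genes tested, and it was 0.86 for donepezil and 0.22 for encenicline. In 26 of the 28 the donepezil shift was the larger. Txnip, which limits glucose uptake, had 310 ± 21.0 FPKM with donepezil, 179 ± 49.3 FPKM with encenicline and 147 ± 25.6 FPKM with saline (SD, n = 5 each), with a pooled log2 fold change of 0.67 (limma adjusted p = 0.0779). Fkbp5, a chaperone of the glucocorticoid receptor and a gene named after its values were seen, had 1.06 (adjusted p = 0.0781), with 1.29 for donepezil and 0.83 for encenicline.

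The mean centred log2 level of the fasting list was 0.30 to 0.74 in donepezil libraries, −0.27 to −0.06 in encenicline libraries and −0.68 to −0.10 in saline libraries. Donepezil thus stood clear of the rest, and encenicline met the saline range at saline 1. Of 10 white adipocyte markers, 4 were tested (Fabp4, Lipe, Pparg and Cfd), and all 4 were higher (median 0.39), beside 50.6% of all genes. The summed level of the markers was 181 to 270.2 FPKM in drug libraries and 166 to 204 FPKM in saline libraries. Most of it was Fabp4, also an endothelial marker here, with 161.5 to 245.8 FPKM in drug and 151.3 to 190 FPKM in saline libraries. The other 6 markers (Adipoq, Lep, Plin1, Cidec, Retn and Nrg4) stayed under 0.5 FPKM in every library. The part of adipose tissue in the result was not tested. Without donepezil 4, 5 members of the fasting list passed (Fbxo32, Fkbp5, Pdk4, Txnip and Ucp3), beside 56 higher of all 13396 genes tested. With the libraries of conflicting labels left out, 2 passed, Pdk4 and Ucp3, beside 3 higher of all 13396 genes.

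Promoters of this list were searched for the core of the glucocorticoid response element, an inverted repeat of GNACA and TGTNC with 3 bases of any kind between them and equal to its own reverse complement, in 250 bases before to 50 after the gene start (RefSeq, GRCm38.p6). Of 22 list promoters in the table, 4 held it (18.2%), beside 41 of 9502 promoters of all genes tested (0.431%). Of the 13 genes that passed, 11 had a promoter in the table and 0 held this motif. The stretches around the matches are shown because these are all the list members that held it, whatever their values, in gene orientation, with the match in capitals. They are at chr3:96557760-96557822 (Txnip, plus strand), chr8:94178970-94179032 (Mt1, plus strand), chr10:21993677-21993739 (Sgk1, plus strand) and chr4:134314887-134314949 (Trim63, plus strand).
Txnip: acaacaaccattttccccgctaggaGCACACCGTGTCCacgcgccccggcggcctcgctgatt
Mt1: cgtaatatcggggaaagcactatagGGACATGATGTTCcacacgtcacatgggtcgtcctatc
Sgk1: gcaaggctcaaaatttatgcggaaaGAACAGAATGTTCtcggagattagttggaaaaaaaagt
Trim63: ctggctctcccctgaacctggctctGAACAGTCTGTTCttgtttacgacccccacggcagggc
The pooled log2 fold changes of these 4 genes were 0.67 for Txnip, 0.77 for Mt1 (a metal-binding metallothionein), 0.24 for Sgk1 (a kinase) and 0.46 for Trim63 (the ubiquitin ligase MuRF1), and none of them passed. Sgk1 and Trim63 are named for the match. A match of letters does not show that the receptor binds there.

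Most fatty acid genes had small pooled values above 0. Of 38 genes tested, 34 were above 0 (50.6% of all genes), 12 were higher at an unadjusted p under 0.05 (6.49% of all genes) and 2 passed, Pdk4 and Ucp3, which are also on the fasting list. The median log2 fold change was 0.18, with 0.10 for donepezil and 0.26 for encenicline, and 0.25 for donepezil without donepezil 4. Under TPM, 26 were above 0 and the pooled median was 0.06, and it was 0.09 in voom and 0.11 without saline 3. Angptl4, a secreted inhibitor of lipoprotein lipase, had 15.2 ± 3.84 FPKM with donepezil, 4.09 ± 2.69 FPKM with encenicline and 3.22 ± 1.17 FPKM with saline (SD, n = 5 each), a pooled log2 fold change of 1.16 (limma adjusted p = 0.0907). Plin2, which coats lipid droplets, had 0.43 (adjusted p = 0.113). Without donepezil 4, 7 members passed, beside 56 higher of all 13396 genes tested. Among them were the fatty acid transporter Cd36, the thioesterases Acot1 and Acot2 and the lipid droplet protein Plin5. Without saline 1, 3 members passed, beside 36 higher of all 13396 genes.

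**Figure D3:**
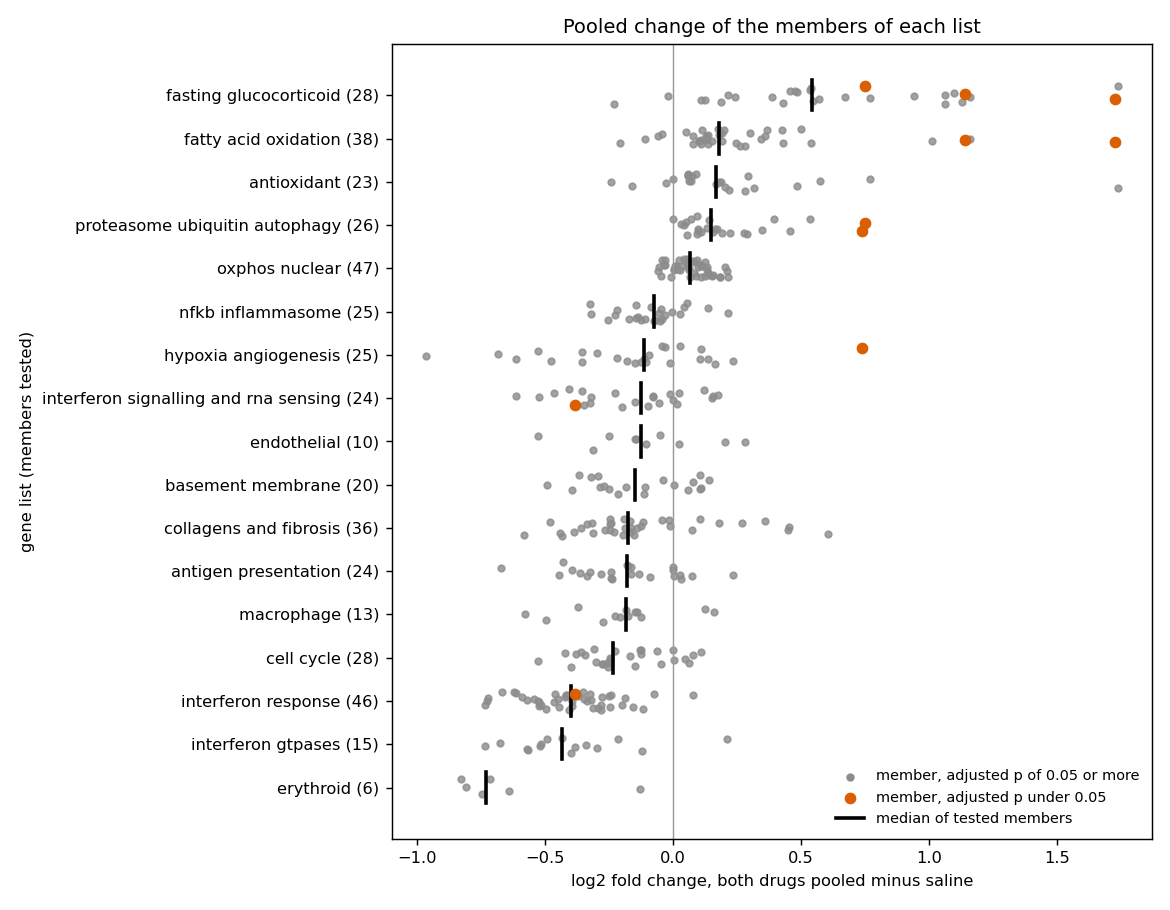
Pooled log2 fold change, both drugs minus saline (horizontal axis), of every tested member of 17 gene lists, with the number tested in brackets; black bars are list medians and orange points are members that passed. Fasting and glucocorticoid genes (median 0.54) lie to the right of 0, and interferon response genes (median −0.40), interferon GTPases (−0.43) and erythroid markers (−0.73) lie to the left.

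Genes of protein breakdown and autophagy had values above 0 in the deposited FPKM, to an extent that depended on scaling. All 26 tested members of the proteasome, ubiquitin and autophagy list had a pooled log2 fold change above 0 (50.6% of all genes), 10 were higher at an unadjusted p under 0.05 (6.49% of all genes), and 2 passed, Fbxo32 and Bnip3. The median was 0.15, with 0.20 for donepezil and 0.13 for encenicline. The mean centred log2 level of the list was −0.05 to 0.24 in the 10 drug libraries and −0.24 to −0.08 in the 5 saline libraries, with no overlap. Under TPM scaling, which set the median of all genes to −0.11, 15 members were above 0 and 11 below, the list median was 0.03 and no member passed in limma. The list median was 0.07 in voom, where the median of all genes was −0.08.

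Sqstm1 and Psmc1 are among the members with the smallest p, and their shifts were larger than the list median. Sqstm1, the autophagy receptor p62, had 206, 194, 236, 237 and 182 FPKM with donepezil, 148, 173, 170.0, 191 and 151 FPKM with encenicline, and 147, 147, 136, 138 and 142 FPKM with saline. Psmc1, an ATPase subunit of the proteasome cap, had 73.7, 71.0, 75.7, 68.4 and 72.5 FPKM with donepezil, 78.2, 70.8, 65.7, 80.3 and 68.7 FPKM with encenicline, and 61.5, 58.6, 56.5, 63.8 and 58.3 FPKM with saline. In both genes all 10 drug libraries were above all saline libraries. Their pooled log2 fold changes were 0.39 and 0.28 (SE 0.08 and 0.06, limma adjusted p = 0.0757 and 0.0781), so neither passed with all libraries, and both passed without donepezil 4. For Psmc1 the shift was 0.27 with donepezil and 0.28 with encenicline.

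Interferon-stimulated genes were lower in drug-treated hearts by a similar amount with either drug. Of 46 tested members, 45 had a pooled log2 fold change below 0, all except Trim25, beside 49.4% of all genes tested, and 39 were lower at an unadjusted p under 0.05, beside 6.01% of all. Ddx58 was the 1 member that passed, beside 0.0448% of all genes that passed and were lower. The median was −0.40, with −0.40 for each drug. With each drug alone at an unadjusted p under 0.05, 26 members were lower, beside 1.62% of all genes. Both drugs are read against the same saline libraries, so the equal medians and the 26 shared members are not independent observations. Without donepezil 4, 6 members passed (Ddx58, Ifit1, Irf7, Lgals3bp, Rtp4 and Sp100), beside 47 lower of all 13396 genes tested. Without saline 1, 9 did (Cmpk2, Ddx58, Ifi44, Ifit1, Oasl2, Rtp4, Sp100, Stat2 and Uba7), beside 55 lower of all 13396 genes. With the libraries of conflicting labels left out, the adjusted p of Ddx58 was 0.0881.

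Rtp4, an interferon-induced chaperone of receptors, was 3.63, 2.30, 3.19, 3.25 and 3.06 FPKM with donepezil, 4.17, 3.08, 2.88, 3.98 and 4.43 FPKM with encenicline, and 4.37, 4.90, 6.91, 5.80 and 8.00 FPKM with saline. Encenicline 5 was the one drug library inside the saline range. Its pooled log2 fold change was −0.73 (SE 0.13, limma adjusted p = 0.0547). Ifit1, which binds viral RNA that lacks a host cap, was 2.60, 1.77, 2.11, 2.73 and 2.31 FPKM with donepezil, 2.16, 1.85, 1.38, 1.8 and 2.18 FPKM with encenicline, and 2.97, 3.15, 4.59, 2.81 and 6.06 FPKM with saline. All 10 drug libraries were below the saline libraries, which spread widely among themselves. Its pooled log2 fold change was −0.73 (SE 0.15, limma adjusted p = 0.0781).

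The saline libraries were uneven on this list. Its mean centred log2 level was −0.32 to 0.06 in drug libraries, with donepezil 4 the highest, and −0.03, 0.08, 0.49, 0.25 and 0.54 in saline libraries 1 to 5. Of the drug libraries, 9 were below all saline libraries and donepezil 4 was between saline 1 and saline 2, and saline 3, saline 4 and saline 5 were furthest from the drug libraries. Over the 30 alternatives, the list median was between −0.55 and −0.31. Of the macrophage markers, 11 of 13 were below 0 (49.4% of all genes), 2 at an unadjusted p under 0.05 (6.01% of all genes). Their median was −0.18 (−0.28 without donepezil 4, −0.11 without saline 3). Their summed level was 156 to 364 FPKM in drug libraries and 195 to 293 FPKM in saline libraries. B cell markers, of which 4 of 9 were tested, had all 4 below 0 (49.4% of all genes) with a median of −0.39. At an unadjusted p under 0.05 there was 1 of them (6.01% of all genes). Their summed level was 4.01 to 13.5 FPKM in drug libraries and 8.54 to 18.9 FPKM in saline libraries, and 7 of 10 drug libraries had a mean level below all saline libraries. The part of these cells and of cell numbers in the interferon result was not tested.

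Of the transcription factors that drive this response, Stat2 had 3.17 ± 0.25 FPKM with donepezil, 2.83 ± 0.084 FPKM with encenicline and 4.40 ± 1.10 FPKM with saline (SD, n = 5 each), a pooled log2 fold change of −0.46 (limma adjusted p = 0.0787). Irf7, the factor that amplifies interferon production, had −0.61 (adjusted p = 0.0974) and Irf9, the partner of Stat2, −0.41 (adjusted p = 0.136). In the wider list of interferon signalling and RNA sensing, 18 of 24 members were below 0 (49.4% of all genes) and the median was −0.12. The interferon-induced GTPases, which attack the membranes around intracellular pathogens, had 14 of 15 members below 0 (49.4% of all genes). Of these, 13 were at an unadjusted p under 0.05 (6.01% of all genes) and 0 passed in limma. Their median was −0.43, with Gbp3 at −0.74 (adjusted p = 0.0961) and Ifi47 at −0.49 (adjusted p = 0.0819). Antigen presentation genes had 19 of 24 below 0 (49.4% of all genes), 12 at an unadjusted p under 0.05 (6.01% of all genes) and a median of −0.18. H2-K1, a class I molecule, had 72.8 ± 15.9 FPKM with donepezil, 70.6 ± 3.17 FPKM with encenicline and 98.05 ± 22.98 FPKM with saline (SD, n = 5 each), a pooled log2 fold change of −0.43 (adjusted p = 0.185). Several members are near-identical copies, such as Ifit3 and Ifit3b, and reads may be split between them.

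**Figure D4:**
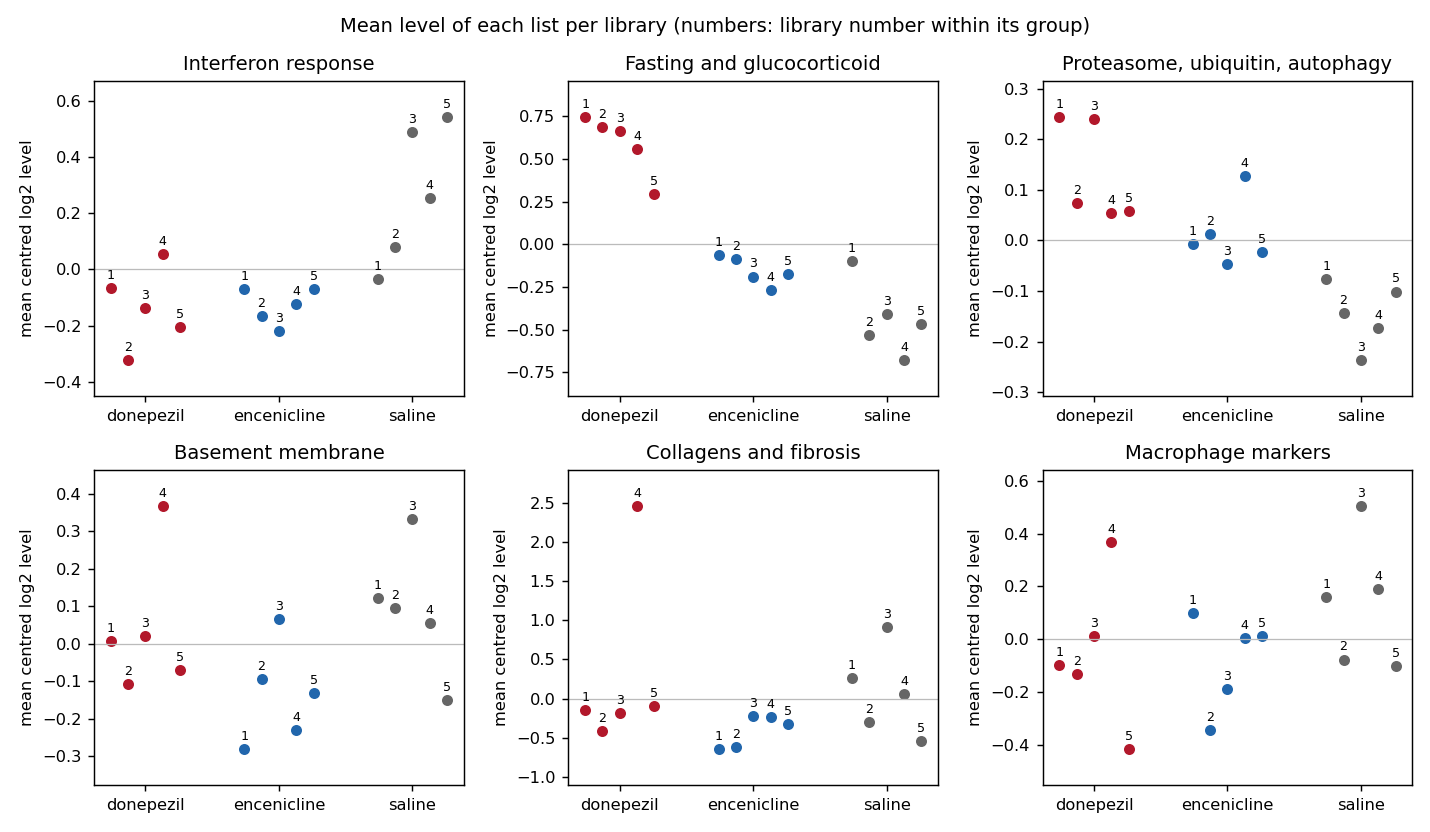
Mean centred log2(FPKM + 0.5) level of 6 lists (vertical axis, own scale in each panel) in the donepezil, encenicline and saline libraries, with the number of each library beside its point. For the interferon response, 9 of the 10 drug libraries lie below all saline libraries and donepezil 4 lies between saline 1 and saline 2, while drug libraries lie above all saline libraries for proteasome, ubiquitin and autophagy genes, and donepezil 4 stands far above the rest for collagens at 2.46.

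The promoters of these lists were searched for the core of the interferon-stimulated response element, a direct repeat of GAAA with 2 bases of any kind between, on both strands (a repeat of TTTC on the other), in the same window. It occurred in 339 of 9502 promoters of all genes tested (3.57%), in 15 of 35 of the interferon response list (42.9%), in 9 of 10 of the interferon GTPases (90.0%) and in 5 of 19 of the antigen presentation list (26.3%). Of the 11 promoters of genes that passed, the Ddx58 promoter alone held it. The whole Ddx58 promoter is shown because this gene passed. Parts of 4 more are shown, from the interferon response members with a match that had the next smallest pooled limma p in these data. They are at chr4:40239776-40240075 (Ddx58, minus strand), chr19:34640760-34640819 (Ifit1, plus strand), chr10:128270251-128270310 (Stat2, plus strand), chr17:78882523-78882579 (Eif2ak2, minus strand) and chr2:62646206-62646248 (Ifih1, minus strand), in gene orientation with the match in capitals.
Ddx58: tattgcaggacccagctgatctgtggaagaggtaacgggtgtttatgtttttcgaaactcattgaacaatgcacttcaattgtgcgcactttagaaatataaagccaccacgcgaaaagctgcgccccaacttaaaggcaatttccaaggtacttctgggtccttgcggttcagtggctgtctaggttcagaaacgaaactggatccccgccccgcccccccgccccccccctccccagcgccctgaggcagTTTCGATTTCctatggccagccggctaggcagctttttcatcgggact
Ifit1: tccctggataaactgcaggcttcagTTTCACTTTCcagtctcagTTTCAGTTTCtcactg
Stat2: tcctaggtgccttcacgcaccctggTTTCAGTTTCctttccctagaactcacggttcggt
Eif2ak2: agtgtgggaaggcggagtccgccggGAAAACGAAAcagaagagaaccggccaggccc
Ifih1: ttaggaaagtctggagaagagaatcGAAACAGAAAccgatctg
The Ddx58 match lies 2 bases after the annotated gene start, and Ifit1 holds 2 matches. Eif2ak2, the kinase that stops translation on double-stranded RNA, had a pooled log2 fold change of −0.39, and Ifih1, the RNA sensor MDA5, had −0.32, and neither passed. Both were named after their values were seen. The match is a description of these letters and not of binding.

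Vessel and matrix genes were mostly lower in the pooled comparison, with few past a threshold. Of 20 basement membrane genes tested, 13 were below 0 (49.4% of all genes), 7 at an unadjusted p under 0.05 (6.01% of all genes) and 0 passed in limma, with a median of −0.15. The median was −0.04 for donepezil, with 11 of 20 lower, and −0.27 for encenicline, with 16 of 20 lower. Without donepezil 4 the donepezil median was −0.16, with 13 of 20 lower. Without saline 3 the pooled median was −0.05, and without saline 5 it was −0.22. Nid2, which links laminin to collagen IV, had 4.65 ± 0.66 FPKM with donepezil, 4.44 ± 0.74 FPKM with encenicline and 6.58 ± 0.79 FPKM with saline (SD, n = 5 each), a pooled log2 fold change of −0.49 (limma adjusted p = 0.0779). Agrn (agrin) had −0.39 and Lama4 (a laminin chain of vessels) −0.37. These 3 genes passed without donepezil 4, beside 47 lower of all 13396 genes tested in that fit. Of the endothelial markers, 7 of 10 were below 0 (49.4% of all genes), with a median of −0.13. At an unadjusted p under 0.05, 4 were lower (6.01% of all genes) and 1 was higher (6.49% of all genes). Their summed level was 492 to 630.0 FPKM in drug libraries and 445 to 588 FPKM in saline libraries. Kdr, the main receptor for vascular endothelial growth factor, had −0.53 (adjusted p = 0.140). In the list of hypoxia and angiogenesis 18 of 25 were below 0 (49.4% of all genes), 9 at an unadjusted p under 0.05 (6.01% of all genes). The one member that passed, Bnip3, was higher.

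Cell cycle genes had 22 of 28 members below 0 (49.4% of all genes) and a median of −0.24, with 10 at an unadjusted p under 0.05 (6.01% of all genes) and 0 passing in limma. The median was −0.05 with the filter at 2 FPKM, −0.40 in voom, and −0.14 without saline 3 or saline 4. Mcm3, a subunit of the replicative helicase, had 1.49 ± 0.20 FPKM with donepezil, 1.47 ± 0.14 FPKM with encenicline and 2.18 ± 0.46 FPKM with saline (SD, n = 5 each), a pooled log2 fold change of −0.42 (limma adjusted p = 0.0961), and it passed without donepezil 4 and without saline 1. All 6 tested erythroid markers were below 0 (49.4% of all genes) with a median of −0.73 (−0.42 without saline 3). Their summed level was 109 to 488 FPKM in drug libraries and 125 to 737 FPKM in saline libraries. Antioxidant genes had 19 of 23 above 0 (50.6% of all genes), 8 at an unadjusted p under 0.05 (6.49% of all genes) and a median of 0.17. Under TPM, 12 were above 0 and 11 below with a median of 0.05, and the median was 0.09 in voom and without saline 3. Catalase (Cat), which breaks down hydrogen peroxide, had 110.0 ± 8.79 FPKM with donepezil, 104 ± 6.44 FPKM with encenicline and 87.7 ± 6.83 FPKM with saline (SD, n = 5 each), a log2 fold change of 0.28 (adjusted p = 0.101).

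Collagen and fibrosis genes had a pooled median of −0.18, with 0.18 for donepezil and −0.52 for encenicline. Of 36 tested, 0 passed in limma and 1 was lower at an unadjusted p under 0.05 (6.01% of all genes). Without donepezil 4 the donepezil median was −0.44, of the same sign as that of encenicline. The pooled median was then −0.48, beside 0.0054 over all genes tested, with 30 of 36 members below 0. In that fit 2 members passed, Col15a1 and Col6a1, both lower, beside 47 lower of all 13396 genes. Without saline 3 the pooled median was 0.02. Nuclear genes of oxidative phosphorylation had a pooled median of 0.07, with −0.06 for donepezil and 0.20 for encenicline. Of 47 tested, 0 were past an unadjusted p of 0.05 (12.5% of all genes) and 0 passed in limma. Without donepezil 4, in which Ndufs1 and Sdha were far below the other donepezil libraries, the donepezil median was 0.07. The pooled median of the list was then 0.13, beside 0.0054 over all genes tested, and 47 of 47 members had a pooled value above 0. The pooled median was below 0 under TPM (−0.06), voom (−0.02) and quantile scaling (−0.02) and without saline 3 (−0.01). Genes of the NF-kappaB and inflammasome pathways had a median of −0.08, with 2 of 25 lower at an unadjusted p under 0.05 (6.01% of all genes) and 0 passing in limma.

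Genes named by the question of the series did not pass. Ccrl2, the chemerin-binding receptor in the series title, had 7.36 ± 2.58 FPKM with donepezil, 5.75 ± 0.28 FPKM with encenicline and 5.58 ± 1.10 FPKM with saline (SD, n = 5 each), a pooled log2 fold change of 0.19 (SE 0.17, limma adjusted p = 0.697). The monocyte receptor Ccr2 had −0.04 (adjusted p = 0.974), and the macrophage genes Cd68 and Adgre1 had −0.27 and −0.23 (adjusted p = 0.632 and 0.766). The stress hormones Nppa and Nppb had 0.10 and −0.34 (adjusted p = 0.968 and 0.866), and the myosins Myh6 and Myh7 0.04 and 0.15 (adjusted p = 0.938 and 0.939). Col1a1, Postn and Il1b had −0.25, −0.39 and −0.07 (adjusted p = 0.896, 0.882 and 0.944). For Nppa, Nppb, Col1a1 and Postn the SE was 0.51 to 0.71 on the log2 scale, so only large differences were detectable. Donepezil 4 was far above the other donepezil libraries for Nppa (857 FPKM against 92.5 to 112), Col1a1 (229 against 13.7 to 20.1) and Postn (155 against 3.38 to 6.68). With 1 library left out, their pooled values were −0.23 to 0.52, −0.62 to −0.05 and −0.86 to 0.03. In the same order, donepezil was above 0 (0.78, 0.22 and 0.13) and encenicline below 0 (−0.59, −0.71 and −0.91).

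The direct targets of the drugs were low or did not pass. Chrna7 was under the filter, with 0.0228 ± 0.028 FPKM with donepezil, 0.00569 ± 0.0078 FPKM with encenicline and 0.0112 ± 0.0154 FPKM with saline (SD, n = 5 each). Ache, the acetylcholinesterase that donepezil blocks, had a pooled log2 fold change of −0.13 and Bche, the related plasma esterase, −0.14 (limma adjusted p = 0.704 and 0.607). Chrm2, the muscarinic receptor of heart muscle, had 0.22 (adjusted p = 0.603). The list of cholinergic and vagal genes had a median of −0.01 over 14 tested members. Of these, 1 was lower at an unadjusted p under 0.05 (6.01% of all genes) and 0 passed in limma.

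The number of genes that passed changed with the model as well as with the libraries. It was 12 to 17 with other pseudocounts, a filter at 2 FPKM, median ratio or quantile scaling, scaling without mitochondrially encoded genes, and TPM. The genes were not all the same: 6 of the 13 passed under TPM (Pdk4, Ucp3, Phyhip, Inka2, Plxnd1 and Cbr2), and 10 of the 13 with scaling that leaves out mitochondrially encoded genes, where Tacc2, Ddx58 and Aox1 were lost. Under TPM the adjusted p was 0.0758 for Hsd17b11, 0.107 for Fbxo32 and 0.0567 for Bnip3. Scaling moved the split of directions, which was 7 higher and 6 lower as reported, 6 and 11 without mitochondrially encoded genes, 3 and 12 with TPM, and 9 and 34 in voom on the recovered reads. With library weights and robust variances 193 passed (115 higher, 78 lower). With the 10 drug libraries treated as 1 group, so that the distance between the drugs counts as spread, no gene passed in limma and 1516 had an unadjusted p under 0.05. Pdk4, Ucp3, Hsd17b11 and Phyhip passed in all 15 fits that left 1 library out.

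**Figure D5:**
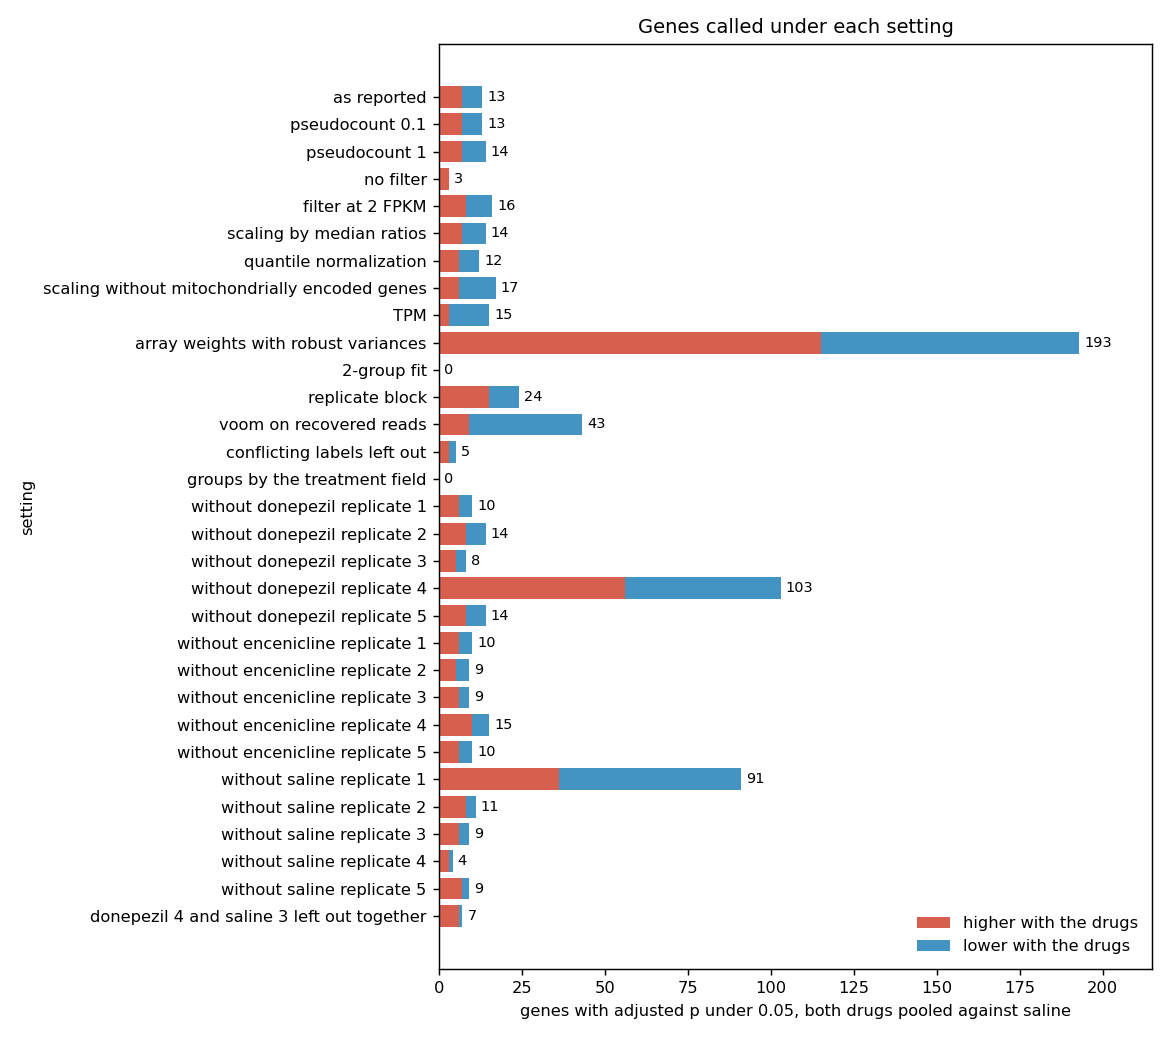
Number of genes with an adjusted p under 0.05 (horizontal axis, from 0) for both drugs pooled against saline as reported and under each of 30 alternatives, split into higher and lower with the drugs. The count is 13 as reported and runs from 0 to 193, with 103 without donepezil 4 and 91 without saline 1.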

How the data were processed

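RNA sequencing of 15 mouse heart libraries was used. DESeq 1.8.3, featureCounts 1.5.0-p3 and HISAT on the build GRCm38 were used by the authors, per the submitters' processing notes, which give no role or order. The authors deposited gene FPKM for 54532 genes. Multiplying each FPKM by gene length and a library constant gave whole reads (within 0.05) in 100% of values. How the library size was defined and whether counting used strand is not given in the sources used here. Symbols that the deposited file holds as dates, 27 in all, were recovered from gene identifiers.

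The filter (0.5 FPKM or more in 5 libraries) kept 13396 genes, of which 11648 protein coding, and these were fitted on log2(FPKM + 0.5) in limma 3.58.1 (R 4.3.3, package data.table, version 1.17.8) with a mean-dependent prior, 3 groups and no block. The contrast was the mean of both drugs minus saline, two-sided, Benjamini-Hochberg adjusted over all genes. Fold changes on this scale understate the change of low genes. The median SE was 0.098. Summaries of a list are counts, the median, and the mean centred log2 level per library, with no set test. The pipeline was tested on simulated data.

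Named genes are those that passed and were shifted the same way by each drug, protein coding with a mean of at least 1 FPKM (up to 12 in each direction, ranked by the smaller of the drug shifts), the largest 5 changes in each direction, up to 4 members by smallest p of each list described, and 15 genes chosen from the series' question. The members, lists and alternatives were chosen with earlier results of these data known, and 1 alternative, donepezil 4 and saline 3 left out together, was added after seeing the data. Promoter sequences are RefSeq's (GRCm38.p6), matched by symbol for 9502 of 13396 genes. The members of the fasting list that passed without saline 1 are not reported here.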

Additional observations from a re-analysis of the deposited data

Results flagged for a closer look

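In 252 groups of 5 libraries from 84 named genes, 15 had 1 library far from the other 4, where chance gives about 1 in 20. The gap of that library to its nearest neighbour, as a share of the group's range, was over Dixon's 95% limit for a group of 5. Donepezil 4 was the far library for Nppa (0.912, 857 FPKM), Col1a1 (0.867, 229 FPKM), Postn (0.834, 155 FPKM), Adgre1 (0.823), Ccr2 (0.774), Col15a1 (0.772) and Loxl2 (0.742), where it was high, and for Ndufs1 (0.876) and Sdha (0.794), where it was low. Mt1 had a low donepezil 5 (0.713). In the encenicline group, Phyhip had a low encenicline 1 (0.946), Aplnr a low encenicline 1 (0.726) and Nfkbib a high encenicline 4 (0.713). In the saline group, Egfl7 had a low saline 1 (0.759) and Icam1 a high saline 3 (0.735).

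The drugs differed from each other, at different doses, in 12 named genes in the direct limma contrast of encenicline minus donepezil. Encenicline was lower for Pdk4 (−2.01), Angptl4 (−1.89), Ucp3 (−1.73), Txnip (−0.827) and Hsd17b11 (−0.403). It was higher for Phyhip (0.932), Timd4 (0.728), Inka2 (0.615), Cbr2 (0.615), Emcn (0.592), Myct1 (0.574) and Egln3 (0.564). Encenicline 1 is also one of the 2 libraries whose label fields conflict.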

How the results depend on the processing

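Over 30 alternatives, the number of genes that passed, 13 as reported, was 3 without a filter, 193 with library weights and robust variances, 43 in voom on recovered reads, 0 with the drug libraries as 1 group, 5 without the 2 libraries of conflicting labels, 0 with groups from the treatment field, and 7 with donepezil 4 and saline 3 both left out, a setting chosen after seeing the data. The numbers shifted the same way by each drug were 3, 192, 42, 0, 5, 0 and 7 in that order. Leaving out 1 library gave 4 to 103 genes, and 4 to 101 shifted the same way. Genes that passed and differed between the drugs, 7 as reported, were 2 without a filter, 44 with library weights, 12 in voom, 4 without the conflicting labels, 0 by the treatment field, 4 without donepezil 4 and saline 3, and 3 to 16 with 1 library left out. The cause was not tested. None of the 13 genes that passed reversed its direction in any alternative. Of the other named genes, only those chosen from the series' question were followed. None of these passed in any alternative, and some changed sign, such as Nppa (−0.226 to 0.516). The median of collagen genes changed sign in 1 alternative and that of oxidative phosphorylation genes in 4.

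The replicate block gave 24 genes (15 higher, 9 lower), all 24 shifted the same way, with 11 of the 13 among them and adjusted p of 0.0531 for Ddx58 and 0.068 for Myct1. The labels give these numbers no shared origin. Of 15 same-numbered pairs of libraries 4 correlated over 0.1 (range −0.0873 to 0.195). Without pairs of unlike number beside them, these values do not show whether the libraries are paired.

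With 5 libraries a group and a median SE of 0.098, small changes of variable genes such as Nppa, Col1a1 and Postn were not detectable.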

Other observations

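Some genes outside the lists above lay near the threshold. Mycn, a growth transcription factor named after its value was seen, had a pooled log2 fold change of −0.97 (limma adjusted p = 0.0508), with −1.24 for donepezil and −0.70 for encenicline. Calr3, a calreticulin of the endoplasmic reticulum, had 9.80, 10.8, 8.13, 6.58 and 9.89 FPKM with donepezil, 9.77, 12.5, 7.07, 9.81 and 9.72 FPKM with encenicline, and 5.97, 6.34, 4.72, 5.66 and 5.82 FPKM with saline, and all drug libraries were above all saline libraries. Its pooled log2 fold change was 0.66 (adjusted p = 0.0547). Slc40a1, the iron exporter ferroportin, had 4.06 ± 0.45 FPKM with donepezil, 4.28 ± 0.56 FPKM with encenicline and 2.77 ± 0.59 FPKM with saline (SD, n = 5 each), a pooled log2 fold change of 0.53 (adjusted p = 0.0711) with 0.49 for donepezil and 0.56 for encenicline. Cxcl12, a chemokine that holds leukocytes and progenitor cells in tissues, had 28.1 ± 4.11 FPKM with donepezil, 31.2 ± 3.42 FPKM with encenicline and 38.6 ± 1.82 FPKM with saline (SD, n = 5 each), a pooled log2 fold change of −0.38 (adjusted p = 0.0834). Calr3, Slc40a1 and Cxcl12 lead lists with members on both sides of 0. Heat shock and chaperone genes had 14 of 28 above 0 (median 0.0011), iron and heme genes 13 of 21 (median 0.06), and chemokines and their receptors 8 of 26 (median −0.09), beside 50.6% of all genes. No member passed in limma, with 4, 7 and 3 members at an unadjusted p under 0.05, beside 12.5% of all genes.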
